A study of Mus musculus with 45 samples.

Results

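The LIF and Stat3 pathway was followed through 9 genes, Stat3, Socs3, Lifr, Il6st, Osmr, Pim1, Pim3, Junb and Bcl3, in RNA-seq libraries of mouse embryonic stem cells (ESCs) leaving 2 media that both contain LIF. The 9 were taken from the 35372 genes counted in every library by their symbol, and each symbol matched 1 row. The cells were wild-type male E14tg2a ESCs, a single line of 129/Ola background. They had been kept in 2iL, which is serum-free N2B27 with LIF, the GSK3 inhibitor CHIR99021 and the MEK inhibitor PD0325901, or in SL, which is serum with LIF. By the paper's account the cells were SL-derived and had at most 3 passages in 2iL before differentiation. From day 0 they were differentiated by 3 courses, as embryoid bodies (EB) in suspension in serum without LIF, as a monolayer in N2B27 with Fgf2 and Activin A (EpiSC course), or as a monolayer in N2B27 alone (Neural course), and were sampled on days 1, 1.5, 2, 2.5, 3, 5 and 7. Of the 45 libraries, 23 came from 2iL and 22 from SL. Every combination of medium, course and day was 1 library, and the SL day 0 library stood for all 3 courses. The 45 held no library of day 5 of the EpiSC course from 2iL.

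The media and courses changed several things at once, which limits what each comparison is about. Leaving 2iL removed LIF and both inhibitors together, and for the EB course it also brought serum and suspension culture. The EpiSC course added Fgf2 and Activin A from either medium. Leaving SL for the EB course kept serum, so LIF was withdrawn while the cells also moved into suspension, and leaving SL for either monolayer withdrew LIF and serum together. The share of LIF in a change cannot be told apart from these other steps. Because the courses stood in for replicates, a p-value for a change over time set the change shared by the 3 courses against the remaining spread. From SL, every change against day 0 was measured from the single SL day 0 library, which was assumed to vary like the later libraries. A deviation of that library alone would therefore appear as a change shared by all courses from SL. That spread was what remained after the mean difference of each course (course as a block), pooled over all days fitted. Splits between courses on later days therefore entered the day 1 intervals too. Nothing in the labels says whether the courses were separate cultures. In whole cultures such as these, fewer cells of a type and less RNA per cell cannot be told apart.

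LIF binds its receptor Lifr, which pairs with the shared subunit Il6st (gp130) and brings Janus kinases together. These phosphorylate the transcription factor Stat3, which moves to the nucleus and sustains self-renewal of mouse ESCs. Socs3 is a Stat3 target whose protein blocks the receptor complex and closes a negative feedback loop. Bcl3, an atypical IκB protein, Junb, an AP-1 subunit and immediate early gene, and the serine/threonine kinases Pim1 and Pim3 are known targets of cytokine and Stat3 signaling. Osmr pairs with Il6st to form the receptor of oncostatin M.

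The promoter sequences of Socs3, Bcl3 and Stat3 are shown because these 3 genes fell together in every course, as shown by the values that follow. Each run is the 250 bases before the start of the gene in RefSeq (GRCm38.p6), 5′ to 3′ on the strand of the gene. Capitals mark matches to TTCNNNGAA, the core of the element bound by Stat proteins, which reads the same on both strands. The windows lie at chr11:117969367-117969616 on the minus strand for Socs3, at chr7:19822756-19823005 on the minus strand for Bcl3 and at chr11:100939541-100939790 on the minus strand for Stat3.
Socs3: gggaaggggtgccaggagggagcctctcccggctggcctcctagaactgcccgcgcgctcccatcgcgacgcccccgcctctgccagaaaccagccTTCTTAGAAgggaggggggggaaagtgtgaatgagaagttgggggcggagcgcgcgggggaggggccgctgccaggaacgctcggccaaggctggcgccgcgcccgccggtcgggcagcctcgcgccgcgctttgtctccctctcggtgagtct
Bcl3: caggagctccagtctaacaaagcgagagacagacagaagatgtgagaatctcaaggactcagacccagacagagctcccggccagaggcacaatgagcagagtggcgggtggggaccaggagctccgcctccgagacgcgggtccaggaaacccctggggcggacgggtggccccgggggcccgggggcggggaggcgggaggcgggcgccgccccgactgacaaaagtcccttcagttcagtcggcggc
Stat3: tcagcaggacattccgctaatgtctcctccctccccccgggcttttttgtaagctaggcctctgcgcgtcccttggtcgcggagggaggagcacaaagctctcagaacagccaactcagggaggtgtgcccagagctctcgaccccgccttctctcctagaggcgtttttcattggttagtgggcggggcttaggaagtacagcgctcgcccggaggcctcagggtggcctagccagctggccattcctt
The Socs3 window held 1 match, from base -154 to base -146 counted from the RefSeq start. In the gene annotation used for exon lengths below, Socs3 reaches chr11:117970047. By that start the window lies inside the gene rather than before it. All 9 genes had a window in the table, 11 windows in all with the alternative starts of Lifr and Pim1, and Socs3 alone among the 9 had a match. Of all 32851 promoter windows of this length, 2306 (7.02%) held at least 1 match.

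Library totals ran from 13093226 to 39804240 counts with a median of 18222720, and the 8 EB libraries from 2iL were deeper as a group (median 34490692, against 17297450 in the other 37). A count of 3 corresponded to 0.165 CPM, the count scaled to the library total, at the median depth. The ESC label was checked against markers. Naive stem cell markers (Nanog, Zfp42, Esrrb, Klf2, Klf4, Tfcp2l1 and Prdm14) summed to 4025 to 4277 CPM in the 3 libraries of 2iL day 0 and to 2339 CPM in the SL day 0 library, and fell to between 79.3 and 290.4 CPM by day 7. The SL day 0 library stood apart in a second list: markers of extraembryonic endoderm (Gata6, Sox17, Sox7, Dab2 and Cubn) summed to 413.4 CPM there against 2.53 to 4.16 CPM in 2iL day 0. Markers of blood and endothelium (Kdr, Pecam1, Cdh5, Ptprc and Hba-a1) summed to 124.9 to 150.2 CPM in 2iL day 0 and 120.8 CPM in SL day 0, of which Pecam1 made up 117.8 to 147.8 CPM, while Ptprc was at or below 0.0549 CPM. Astrocyte markers (Gfap, Aldh1l1 and Aqp4) summed to 28.4 to 41.3 CPM and 27.8 CPM, nearly all of it Aldh1l1, with Gfap at or below 0.219 CPM and Aqp4 at 0.

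At day 0 all of the genes but Osmr were well expressed. Per kilobase of exon, the levels in 2iL ran in the order Pim1 (27.8 ± 5.58 CPM per kilobase, SD, n = 3), Socs3 (25.0 ± 5.55), Pim3 (24.9 ± 3.44), Il6st (17.0 ± 1.65), Lifr (16.6 ± 3.02), Bcl3 (15.9 ± 2.31), Stat3 (12.4 ± 0.623), Junb (2.99 ± 0.541) and Osmr (0.0101 ± 0.00632). Within the groups Pim1, Socs3 and Pim3, and Il6st, Lifr and Bcl3, neighbours differed by less than their SD. In the SL library the order was led by Pim3 at 63.4 and Socs3 at 44.8 CPM per kilobase, and Stat3, Il6st and Bcl3 lay close together at 8.63, 8.47 and 7.89.

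**Figure D1:**
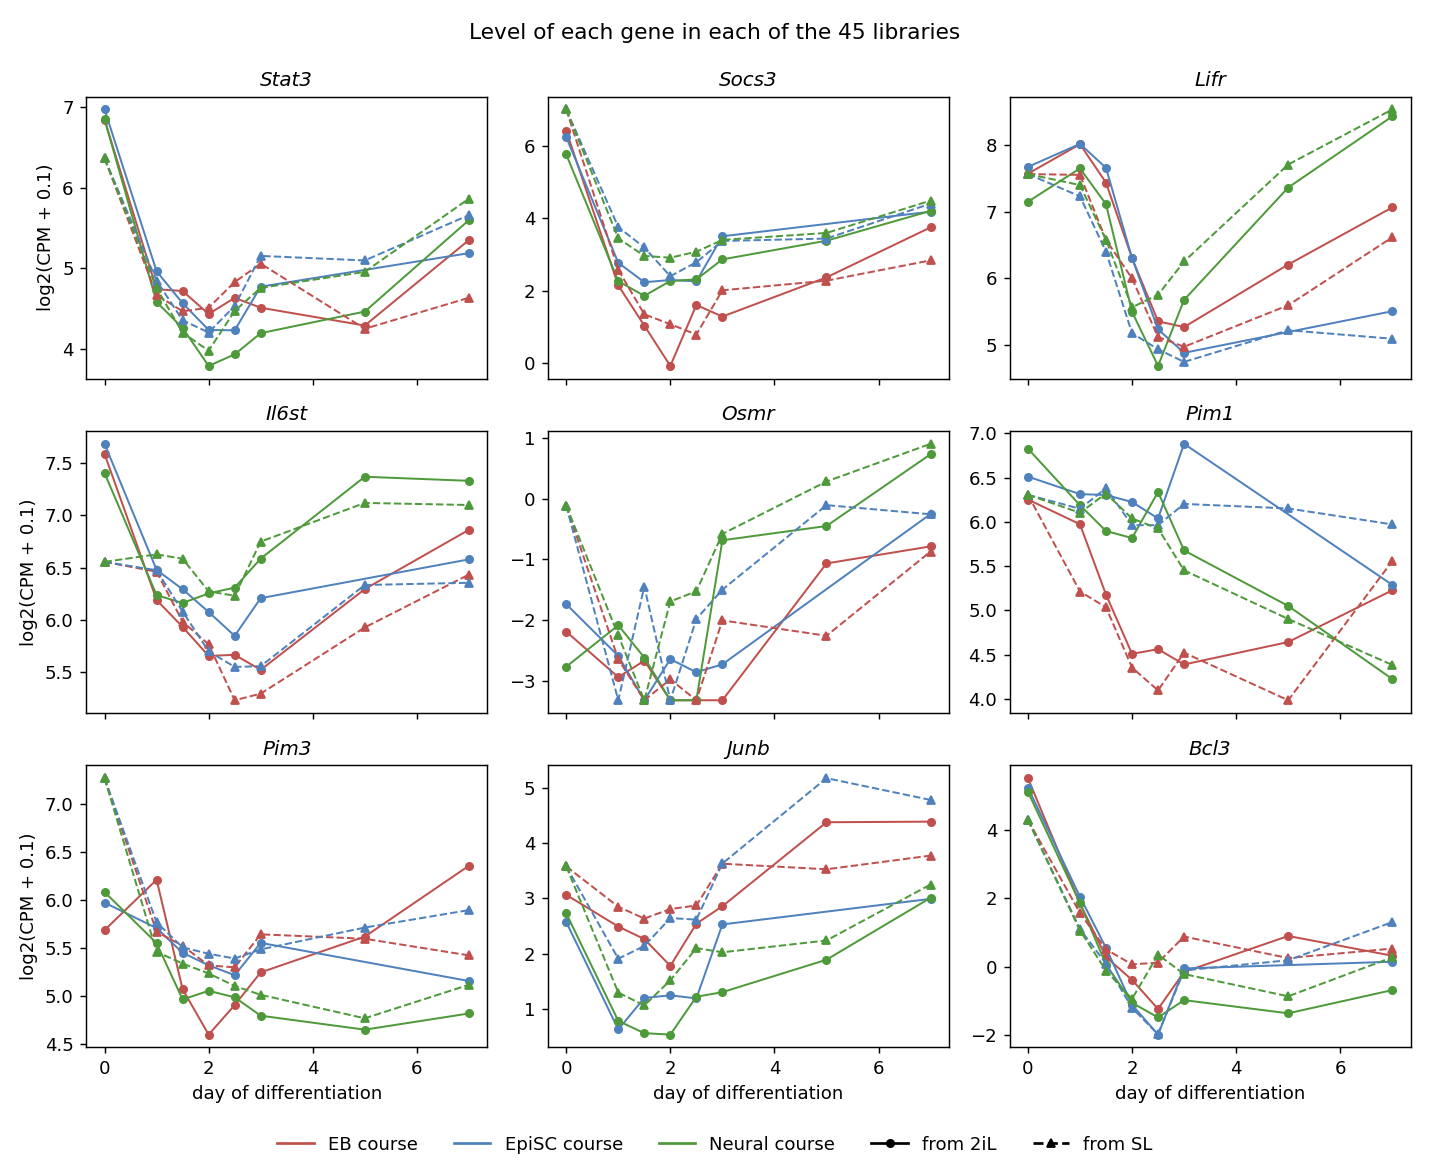
Level of each of the 9 genes, as log2(CPM + 0.1), against the day of differentiation in all 45 libraries. Colours give the course, circles with solid lines the libraries from 2iL and triangles with dashed lines those from SL, whose single day 0 library is drawn in all 3 courses. Stat3, Socs3 and Bcl3 dropped by day 1 in all 6 series and stayed below day 0, whereas Lifr had no common drop on day 1, reached its lowest level between days 2 and 3 and then split by course.

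The feedback inhibitor Socs3 lost most of its transcript on the first day out of either medium. Its level was 85.9, 76.1 and 54.6 CPM in the 3 libraries of 2iL day 0 and 4.32 (EB), 6.72 (EpiSC) and 4.70 (Neural) CPM a day later. From SL it went from 129.5 CPM to 5.86, 13.4 and 10.8 CPM in the same courses. Day 1 retained between 4.52% and 10.4% of the day 0 level over the 6 series, and no day 1 library came near a day 0 library. The fitted log2 change was -3.91 ± 0.46 (SE) from 2iL (adjusted p = 1.6e-05, edgeR quasi-likelihood test) and -3.72 ± 0.26 from SL (adjusted p = 2.41e-06).

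Bcl3, too, lost most of its transcript. From 45.7, 37.7 and 34.7 CPM in 2iL it was at 3.50, 4.02 and 3.52 CPM on day 1 (log2 change -3.42 ± 0.33, adjusted p = 3.06e-06), and from 19.5 CPM in SL it was at 2.87, 2.04 and 1.98 CPM (-3.06 ± 0.54, adjusted p = 0.00193). The 6 day 1 values ran from 1.98 to 4.02 CPM, where the day 0 values of both media ran from 19.5 to 45.7 CPM. By day 2.5 Bcl3 was at 0.151 to 1.17 CPM, that is at 2 to 19 counts per library, and Bcl3 had the widest range of the 8 genes other than Osmr, 303-fold between its highest and lowest library. Stat3 itself fell too. It was at 114.8, 125.2 and 115.1 CPM in 2iL and at 26.6, 31.0 and 23.8 CPM on day 1 (-2.15 ± 0.17, adjusted p = 4.22e-07). In SL it started lower, at 82.2 CPM, and reached 25.3, 28.6 and 26.8 CPM (-1.57 ± 0.34, adjusted p = 0.0063), so that the day 1 ranges from the 2 media overlapped. The SL change of Stat3 lost the threshold when the EpiSC course was left out (adjusted p = 0.0674).

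Of the receptor subunits, Lifr was at 189.9, 203.8 and 141.8 CPM in 2iL and at 258.2, 259.0 and 200.6 CPM on day 1, higher than its own day 0 library in each course. From 189.2 CPM in SL it was at 187.6, 150.0 and 168.7 CPM. Neither fitted change passed the threshold (0.41 with a 95% interval of -0.62 to 1.43 from 2iL, and -0.04 with an interval of -1.49 to 1.42 from SL). Il6st fell after 2iL, from 192.2, 205.5 and 169.3 CPM to 73.0, 89.1 and 75.4 CPM (-1.28 ± 0.22, adjusted p = 0.000451). From SL it was at 94.0 CPM on day 0 and at 88.0, 88.9 and 98.8 CPM on day 1 (0.04, interval -0.48 to 0.56). The difference between the media in the Il6st change was -1.35 ± 0.37 (adjusted p = 0.0197), and it did not pass without the course as a block (adjusted p = 0.326) or without the EB or EpiSC course (adjusted p = 0.0519 and 0.165).

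Osmr, the oncostatin M receptor subunit, was close to the detection limit throughout, with 244 counts over the 45 libraries. It had 4, 3 and 1 counts in the libraries of 2iL day 0, 15 counts (0.823 CPM) in SL day 0 and 0 to 3 counts in each day 1 library. The fitted fall from SL (-3.91 ± 1.11, adjusted p = 0.0247) rested on those 15 counts and did not pass in any fit that left out a course (adjusted p = 0.0543 to 0.0771) or without the course as a block (adjusted p = 0.16).

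The kinases Pim1 and Pim3, which phosphorylate regulators of growth and survival, did not change past the threshold on day 1, except for Pim3 after SL. Pim1 was at 76.1, 91.1 and 113.4 CPM in 2iL and at 62.7, 79.4 and 72.8 CPM on day 1, and at 79.0 CPM in SL against 37.0, 70.8 and 68.6 CPM, the EB library being lowest. Neither change passed (-0.39, interval -1.29 to 0.50, and -0.42, interval -1.59 to 0.74). Pim3 was at 51.3, 62.6 and 67.6 CPM in 2iL and at 73.9, 52.1 and 46.7 CPM on day 1, higher than day 0 in the EB course and lower in the others (fitted change -0.12, interval -0.80 to 0.56). In SL it started at 154.0 CPM, above every other library of the series, and fell to 50.7, 54.3 and 43.9 CPM (-1.59 ± 0.19, adjusted p = 0.000208). The media differed in this change by 1.43 ± 0.44 (adjusted p = 0.0383), but not past the threshold without the course as a block (adjusted p = 0.0916), without the EpiSC course (adjusted p = 0.163) or without the Neural course (adjusted p = 0.0643).

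The day 1 values of Junb were split by course. In 2iL it was at 8.27, 5.86 and 6.54 CPM, and on day 1 it was at 5.52 CPM in EB but at 1.45 and 1.62 CPM in the EpiSC and Neural courses. From 11.9 CPM in SL it was at 7.11, 3.66 and 2.36 CPM. The EB library kept 66.8% and 60.0% of its day 0 level from 2iL and SL and the monolayers between 19.9% and 30.9%. The fitted change from 2iL was -1.53 ± 0.35 (adjusted p = 0.00372), which was lost without the course as a block (adjusted p = 0.199) and without the EpiSC or the Neural course (adjusted p = 0.0647 in each). From SL it was -1.46 ± 0.55 (adjusted p = 0.0744), and -1.98 without the EB course (adjusted p = 0.0466).

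Of the 9 genes, 5 were lower on day 1 after 2iL and none higher, where 14% of the 16306 genes tested were lower and 14.6% higher. After SL 5 were lower and none higher, where 9.69% of 16482 were lower and 8.45% higher. The median log2 change was -1.28 and -1.57 over the 9 genes, against 0.02 and -0.01 over all tested. Socs3, Bcl3 and Stat3 were common to both counts. The change differed between the media for Il6st and Pim3 (8.13% of 17107 genes differed). Markers of the cell state moved on the same day. Of the 7 naive markers 5 were lower after 2iL, their sum going from 4025 to 4277 CPM to 927.2 to 1233 CPM, and 4 after SL, from 2339 CPM to 727.9 to 849.5 CPM. Tfcp2l1 alone was at 1808 to 2024 CPM in 2iL day 0 and at 622.6 CPM in SL day 0. Tfcp2l1 and Klf4 are also among the other pathway genes followed below, so this list is not separate from the pathway. Of the 4 formative or EpiSC markers (Fgf5, Otx2, Pou3f1 and Dnmt3b) 4 were higher after 2iL, from 94.9 to 124.6 CPM to 393.6 to 1213 CPM, and 3 after SL, from 224.9 CPM to 461.7 to 1118 CPM. Their part in the changes of the 9 genes was not tested.

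**Figure D2:**
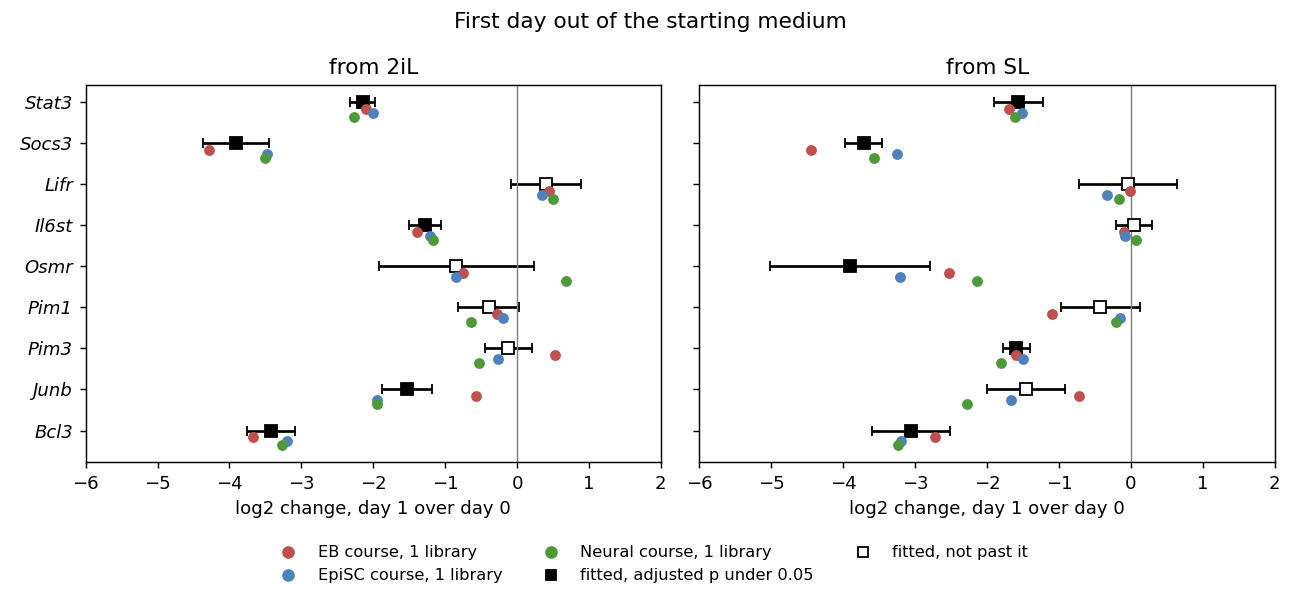
Log2 change from day 0 to day 1 for each gene after 2iL (left) and after SL (right). Coloured circles are the single libraries of each course against their day 0 library (for SL, the same library for all 3), on the log2(CPM + 0.1) scale, and squares with bars are the fitted change and its SE, filled where the adjusted p was under 0.05. Stat3, Socs3, Bcl3, Junb and Pim1 sit left of 0 in every course after both media. Il6st does so in every course only after 2iL, and Pim3, Osmr and Lifr only after SL. The fitted changes of Pim1 and Lifr did not pass after either medium.

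After day 1 the levels of Stat3, Socs3 and Bcl3 remained below day 0 up to day 7. Every one of the 20 later libraries from 2iL was below all 3 day 0 libraries for Stat3, Socs3, Il6st and Bcl3, as for 6.76% of the 13768 genes with a mean of at least 1 CPM. From SL all 21 later libraries were below the day 0 library for Stat3, Socs3, Pim3 and Bcl3 (15.3% of genes). Socs3 was lowest between days 1.5 and 2.5, at 0.841 CPM in EB from 2iL and at 1.62 CPM in EB from SL but at no less than 3.51 CPM in any monolayer series. It was then at 13.4 (EB), 18.1 (EpiSC) and 18.4 (Neural) CPM on day 7 from 2iL and at 7.04, 21.1 and 22.4 CPM from SL, which was 5.44% to 33.6% of its day 0 level. The change from day 1 to days 5 and 7 was 1.11 ± 0.39 from 2iL (adjusted p = 0.0213), lost without the course as a block (adjusted p = 0.0812) or without the EpiSC or Neural course (adjusted p = 0.0968 and 0.183), and 0.21 from SL (interval -0.17 to 0.60). Stat3 ended between 24.7 and 58.0 CPM on day 7. Against day 0 it was lower over days 5 and 7, with log2 changes of -2.06 ± 0.15 from 2iL (adjusted p = 9.17e-09) and -1.21 ± 0.31 from SL (adjusted p = 0.00555). Bcl3 stayed between 0.287 and 2.36 CPM on those days (-5.48 ± 0.32 and -4.04 ± 0.45, adjusted p = 7.78e-10 and 5.85e-06).

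Lifr, the specific subunit of the LIF receptor, fell mainly after day 1. It was at 138.3 to 201.8 CPM on day 1.5 from 2iL and at 84.3 to 95.3 CPM from SL. By days 2.5 and 3 all 12 libraries were at 25.6 to 76.1 CPM, below all 4 day 0 libraries, which was also so for Stat3, Socs3, Pim3 and Bcl3 and for 10.4% of the 13768 genes. The lowest value of Lifr came on day 2, 2.5 or 3, that of Socs3 on day 1.5, 2 or 2.5 and that of Bcl3 on day 2 or 2.5. From SL in the Neural course Lifr, Socs3, Bcl3 and Stat3 were all lowest on day 2. In EB Stat3 was lowest on day 5, after Lifr. In the Neural course Lifr was then at 344.9 and 370.7 CPM on day 7 (from 2iL and SL), 243.2% and 195.9% of day 0, while in the EpiSC course it was at 45.3 and 34.0 CPM and in EB it reached 133.7 and 97.9 CPM. Over all courses days 5 and 7 did not differ past the threshold from day 0 (-0.46, interval -1.42 to 0.49, from 2iL and -0.90, interval -2.17 to 0.38, from SL), but without the Neural course they were lower (-1.47, adjusted p = 0.00558, and -1.89, adjusted p = 0.000637).

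Il6st, the signal-transducing subunit, reached its lowest levels of 37.5 to 75.0 CPM around days 1.5 to 3 and was at 95.5 to 160.8 CPM from 2iL and 81.8 to 137.0 CPM from SL on day 7. From 2iL days 5 and 7 stayed below day 0 (-0.76 ± 0.20, adjusted p = 0.00295, but 0.0543 without the course as a block, 0.0652 without EB and 0.0544 without the EpiSC course) and rose from day 1 (0.53 ± 0.20, adjusted p = 0.0309, but 0.0849 without the block and 0.0571 and 0.455 without the EpiSC and Neural courses). Osmr rose from the floor to 0.446 to 1.77 CPM on day 7, with log2 changes from day 1 of 3.08 ± 0.89 and 3.64 ± 0.88 (adjusted p = 0.0062 and 0.00197). Its rise over day 0 in 2iL (2.23 ± 0.83, adjusted p = 0.0266) did not pass without the EpiSC or Neural course (adjusted p = 0.0886 and 0.123).

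Junb was higher late than on day 1. On days 5 and 7 it was at 3.61 to 20.8 CPM from 2iL and at 4.63 to 36.0 CPM from SL, higher than on day 1 by 1.92 ± 0.33 (adjusted p = 9.3e-05) and 1.81 ± 0.39 (adjusted p = 0.000841). Against day 0 the changes of 0.38 (interval -0.27 to 1.03) and 0.35 (interval -0.80 to 1.501) did not pass, and their sign turned without the EB course for 2iL and without the EpiSC course for SL. Pim1 went down late, to 18.6 to 39.0 CPM on day 7 from 2iL (-1.57 ± 0.38 over days 5 and 7, adjusted p = 0.00171), and the SL change of -0.98 (interval -2.01 to 0.05) did not pass. Pim3 remained below its SL day 0 level (-1.82 ± 0.17, adjusted p = 1.04e-06) and was -0.63 (interval -1.25 to -0.01) against 2iL day 0, with an adjusted p of 0.0692.

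Over days 5 and 7 against day 0, 5 of the 9 genes were lower and 1 (Osmr) higher from 2iL, where 30.9% of tested genes were lower and 33.8% higher, and 4 were lower and none higher from SL, where 21.7% were lower and 20.9% higher. Against day 1, 4 were higher (Socs3, Il6st, Osmr and Junb) and 2 lower (Pim1 and Bcl3) from 2iL, against 33.6% and 31.2% of genes, and 2 were higher (Osmr and Junb) and 1 lower (Bcl3) from SL, against 33.3% and 29.7%. The Bcl3 fall from day 1 in SL (-0.98 ± 0.39, adjusted p = 0.0398) did not pass without the block (adjusted p = 0.0697) or without the EB or Neural course (adjusted p = 0.204 and 0.178). From 2iL it was -2.06 ± 0.30 (adjusted p = 1.91e-05). Days 5 and 7 enter both of these comparisons.

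The starting media were compared directly at day 0, with the 3 libraries of 2iL against the single library of SL, which was assumed to vary like the others. Stat3 (0.59 ± 0.16, adjusted p = 0.0247), Il6st (1.06 ± 0.17, adjusted p = 0.00214) and Bcl3 (1.07 ± 0.20, adjusted p = 0.0041) were higher in 2iL. Socs3 (-0.79 ± 0.20, adjusted p = 0.0183), Pim3 (-1.28 ± 0.19, adjusted p = 0.00153) and Osmr (-2.72 ± 0.81, adjusted p = 0.0316) were lower. Thus 3 of the 9 genes were higher and 3 lower, where 13.5% and 17.3% of 14948 tested genes were. When the spread was estimated from all 45 libraries, Il6st and Pim3 kept the threshold and Stat3, Socs3, Osmr and Bcl3 did not (adjusted p = 0.143, 0.424, 0.0727 and 0.126). Lifr was at 141.8 to 203.8 CPM in 2iL and 189.2 CPM in SL. Beside these differences stood those of the extraembryonic endoderm markers, all 5 of which were lower in 2iL with a median log2 difference of -5.30, and of the immediate early genes, 11 of 15 tested being lower in 2iL and none higher. Fos was at 17.1 CPM in SL and 0.887 to 1.43 CPM in 2iL, and Junb itself was at 11.9 and 5.86 to 8.27 CPM (-0.71 ± 0.27, adjusted p = 0.0779). Of the neural markers 2 of 4, and of the primitive streak markers 2 of 3, were higher in 2iL. The part of these lists in the differences of the 9 genes was not tested.

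Over days 1 to 3 the medium of origin left small differences. Cells from 2iL had lower Socs3 (-0.53 ± 0.15, adjusted p = 0.00492) and Junb (-0.82 ± 0.20, adjusted p = 0.00158) and higher Lifr (0.36 ± 0.11, adjusted p = 0.0118), so that 2 of the 9 genes were lower and 1 higher, where 22.9% and 24.3% of 16467 genes were. None of the 3 passed without the course as a block (adjusted p = 0.138, 0.0608 and 0.428). Socs3 was also lost without the EpiSC or Neural course (adjusted p = 0.0678 and 0.112) and Lifr without the EB or EpiSC course (adjusted p = 0.092 and 0.311). All 5 extraembryonic endoderm markers were lower from 2iL in the same comparison (median -2.60), as were all 3 primitive streak markers, T, Mixl1 and Eomes (median -0.86). Of the 17 immediate early genes 5 were lower from 2iL, Atf3, Fosl2, Fosl1, Jun and Btg2, and none higher. The part of these lists was not tested.

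The courses diverged early between EB and the 2 monolayers. In all comparisons of courses, early and late, the days of a series stood in for replicates. They are not independent, so these p-values do not measure the spread between repeated cultures. Over days 1 to 2 Socs3 was at 0.841 to 5.86 CPM in the 6 EB libraries, with a median of 2.21, and at medians of 5.94 and 6.06 CPM in the EpiSC and Neural courses (EB against monolayers -1.35 ± 0.22, adjusted p = 3.62e-05). Pim1 was at a median of 34.4 CPM in EB and of 76.8 and 67.1 CPM in the monolayers (-1.098 ± 0.21, adjusted p = 0.000315), and only the highest EB library, at 62.7 CPM, reached into their range. Junb went the other way, at a median of 5.82 CPM in EB against 2.97 and 1.81 CPM (1.17 ± 0.26, adjusted p = 0.00121). These 3 differences held from each medium alone, Socs3 at -1.48 from SL and -1.21 from 2iL, Pim1 at -1.31 and -0.91, and Junb at 0.99 and 1.36. Il6st was slightly lower in EB (-0.30 ± 0.09, adjusted p = 0.0143), though not from SL or 2iL alone (adjusted p = 0.133 and 0.0579). In all, 3 genes were lower and 1 higher in EB, where 15% and 19% of genes were.

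EB differ from the monolayers in serum, in suspension culture and in sequencing depth, and these cannot be told apart. The greater depth was that of the EB libraries from 2iL and of the day 2 EB library from SL (37071102 counts). Of the 17 immediate early genes listed, Zfp36 (1.72 ± 0.28), Nr4a1 (1.11 ± 0.15) and Dusp1 (0.73 ± 0.15) were higher and Ier2 (-0.20 ± 0.08) lower in EB beside Junb. Of the 4 neural markers 3 were lower, their sum being 32.6 to 51.8 CPM in EB and 66.2 to 118.6 CPM in the monolayers. All 4 formative or EpiSC markers were higher in EB (median 1.68), their sum being 1118 to 2952 CPM in EB, 393.8 to 1129 CPM in the EpiSC course and 393.6 to 970.7 CPM in the Neural course. Of the extraembryonic endoderm markers Dab2 and Cubn were higher and Gata6 lower, and of the primitive streak markers Eomes was higher. The part of these lists in the EB differences was not tested. Between the EpiSC and Neural courses on days 1 to 2, none of the 9 genes passed by edgeR or by DESeq2, 1 (Il6st, -0.30) had an unadjusted p under 0.05, and 2.13% of genes passed. The interval of the difference reached from -0.47 to 0.50 for Socs3 and from -0.10 to 0.39 for Stat3.

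By days 5 and 7 the largest course difference among the 9 genes was that of Lifr. It was at 164.4 and 344.9 CPM (days 5 and 7) from 2iL and at 208.9 and 370.7 CPM from SL in the Neural course, at 45.3 CPM (day 7, 2iL), 37.2 and 34.0 CPM (SL) in the EpiSC course, and at 48.2 to 133.7 CPM in EB. No Neural library overlapped an EpiSC or EB library. EpiSC against Neural gave -2.93 ± 0.27 (adjusted p = 1.55e-08), with -2.96 from SL alone and -3.05 from 2iL alone. Il6st, its partner, showed the same direction at 137.0 to 165.2 CPM in the Neural course and 80.6 to 95.5 CPM in the EpiSC course (-0.87 ± 0.15, adjusted p = 6.39e-05). Beside both stood the extraembryonic endoderm markers. All 5 were lower in the EpiSC course, with a median of -4.04, and their sum was 1122 to 2534 CPM in the 4 Neural libraries, 104.0 to 334.1 CPM in the 3 EpiSC libraries and 89.4 to 849.7 CPM in EB. Cubn alone made up 1783 CPM and Gata6 109.7 CPM in the Neural library of day 7 from SL. Of the 4 neural markers, whose sum was 344.5 to 611.7 CPM in the Neural course and 173.6 to 374.2 CPM in the EpiSC course, 2 were lower in the EpiSC course. Higher in the EpiSC course were all 4 formative or EpiSC markers (median 1.88, summed level 432.6 to 755.6 CPM against 132.2 to 325.5 CPM), all 3 primitive streak markers (median 4.16, 19.3 to 77.3 CPM against 3.56 to 7.29 CPM) and 2 of 3 fibroblast markers, Col1a1 and Col1a2. The part of these lists in the differences of the 9 genes between the courses was not tested.

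**Figure D3:**
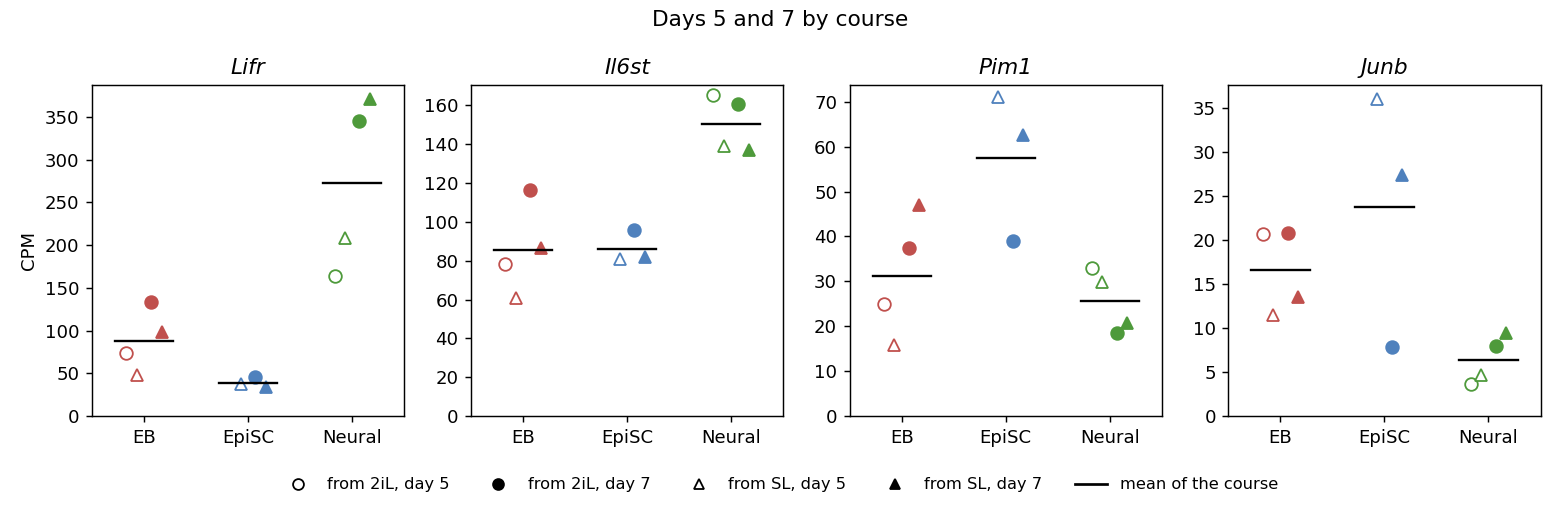
CPM of Lifr, Il6st, Pim1 and Junb on days 5 and 7 in the EB (4 libraries), EpiSC (3) and Neural (4) courses. Circles are libraries from 2iL and triangles from SL, open on day 5 and filled on day 7, and the line is the mean. The 4 Neural libraries lie above all others for Lifr and Il6st, whereas for Pim1 and Junb the 2 EpiSC libraries from SL are highest and the EpiSC library from 2iL is not.

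Junb, Pim1, Pim3 and Bcl3 were higher in the EpiSC course. Junb was at 36.0 and 27.4 CPM in the EpiSC libraries from SL but at 7.86 CPM in the library from 2iL, against 3.61 to 9.43 CPM in the Neural course (1.79 ± 0.41, adjusted p = 0.00144). Pim1 was at 71.0 and 62.6 CPM from SL and 39.0 CPM from 2iL, against 18.6 to 33.0 CPM (1.099 ± 0.33, adjusted p = 0.0113), and Pim3 at 35.5 to 59.3 against 25.0 to 34.5 CPM (0.66 ± 0.22, adjusted p = 0.0199). None of the 3 passed from 2iL alone (0.08, 0.48 and 0.02). Bcl3 was higher by 1.23 ± 0.41 (adjusted p = 0.0208) and passed from neither medium alone (adjusted p = 0.116 from SL and 0.218 from 2iL). Thus 4 genes were higher and 2 lower in the EpiSC course, where 18.6% and 17.3% of genes were. Of the 17 immediate early genes, 7 were higher in the EpiSC course, among them Egr1 (2.13 ± 0.67) and Fosl1 (2.23 ± 0.77), and their part was not tested.

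Against both monolayers, EB on days 5 and 7 had lower Stat3 (-0.58 ± 0.13, adjusted p = 0.0017), Socs3 (-1.105 ± 0.26, adjusted p = 0.0018), Il6st (-0.49 ± 0.12, adjusted p = 0.0024) and Osmr (-1.39 ± 0.54, adjusted p = 0.0473) and higher Pim3 (0.54 ± 0.17, adjusted p = 0.0192), that is 4 lower and 1 higher where 16.6% and 17.6% of genes were. The media of origin did not contribute equally. Stat3 was at 18.9 and 24.7 CPM in EB from SL against 30.9 to 58.0 CPM in the monolayers from SL, and at 19.4 and 40.6 CPM against 21.9 to 48.3 CPM from 2iL. From SL alone the Stat3 difference was -1.04 (adjusted p = 0.00039) and from 2iL alone -0.03 (adjusted p = 0.912). Socs3, Il6st and Osmr did not pass from 2iL alone (adjusted p = 0.295, 0.177 and 0.439) and Osmr did not pass from SL alone (0.0852), with DESeq2 (0.0714) or without the filter on low counts (0.0722). Pim3 did not pass from SL alone (0.06, adjusted p = 0.741). Junb was 0.46 (interval -0.23 to 1.14) over both media, 1.79 from 2iL alone (adjusted p = 0.00432) and -0.32 from SL alone.

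A test of the difference between media, added after these values had been seen, passed for Stat3 (0.98 ± 0.19, adjusted p = 0.00861), Pim3 (1.06 ± 0.29, adjusted p = 0.0426) and Junb (2.08 ± 0.46, adjusted p = 0.0157), 3 of the 9 genes where 4.56% of 16946 genes passed. Each is the EB difference from 2iL minus that from SL. Over both media all 4 neural markers were lower in EB (median -2.04, summed level 97.2 to 262.0 CPM) and all 3 primitive streak markers, T, Mixl1 and Eomes, were higher (median 5.26, summed level 135.4 to 714.4 CPM in EB, 19.3 to 77.3 CPM in the EpiSC course and 3.56 to 7.29 CPM in the Neural course). The part of these lists in the EB differences was not tested.

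Across the 44 other genes of the pathway, 13 were lower and 5 higher on day 1 from 2iL of 41 tested, and 11 lower and 2 higher from SL of 42 tested, where 14% of all genes tested were lower and 14.6% higher from 2iL and 9.69% and 8.45% from SL. Among the largest falls from 2iL were those of Sp5, a transcription factor that is also a Wnt target (29.5, 21.0 and 23.4 CPM to between 0 and 0.0451 CPM) and of the ligand Osm (-4.10 ± 0.62, 12.4 to 14.6 CPM to 0.361 to 1.298 CPM). The largest rises from 2iL were those of Cntfr, the receptor subunit of ciliary neurotrophic factor (7.12 ± 0.75, from 0.133 to 0.327 CPM to 26.0 to 48.7 CPM), Myc (4.21 ± 0.54) and Pim2, the third Pim kinase (2.42 ± 0.77). The SL day 0 library, also with LIF, already differed from 2iL in Sp5 (0.0549 CPM), Osm (0.494 CPM) and Cntfr (4.55 CPM). From SL, Cntfr was at 11.7 to 41.7 CPM on day 1, a change that did not pass the threshold. Among the largest falls from SL were those of the naive factor Klf4 (-2.40 ± 0.57) and the kinase Jak3 (-2.21 ± 0.33), and only Pim2 (2.62 ± 0.78) and Myc (1.93 ± 0.63) rose.

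Pim2 rose on the first day out of both media. It was at 5.72 to 8.77 CPM on day 0 over both media, at 21.0 to 81.1 CPM from 2iL and 36.2 to 57.4 CPM from SL on day 1, and at 93.5 to 348 CPM on day 3. No day 1 library overlapped a day 0 library. Pim2 was also higher in EB over days 1 to 2 (0.86), where Pim1 was lower.

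Among the ligands, Lif was at 8.54 to 11.1 CPM in 2iL and 8.89 CPM in SL and fell to 2.57 to 5.19 CPM on day 1 (-1.095 ± 0.28 and -1.44 ± 0.37, adjusted p = 0.00841 and 0.0146). Il6 and Il11 were at or below 0.119 and 0.12 CPM through day 1, and Cntf, Ctf1, Ctf2 and Clcf1 ranged up to 2.69 CPM. The receptor-bound Janus kinases Jak1, Tyk2 and Jak2 were at 53.6 to 91.2, 32.5 to 51.2 and 13.99 to 20.9 CPM in the 4 day 0 libraries. Jak3 was at 70.4 to 85.5 CPM in 2iL and 38.5 CPM in SL and dropped to 6.57 to 13.4 CPM on day 1. Of the 15 inhibitors other than Socs3, 3 were lower and 1 higher from 2iL and 1 was lower from SL, beside the same 14% and 14.6% of all genes from 2iL and 9.69% lower from SL.

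**Figure D4:**
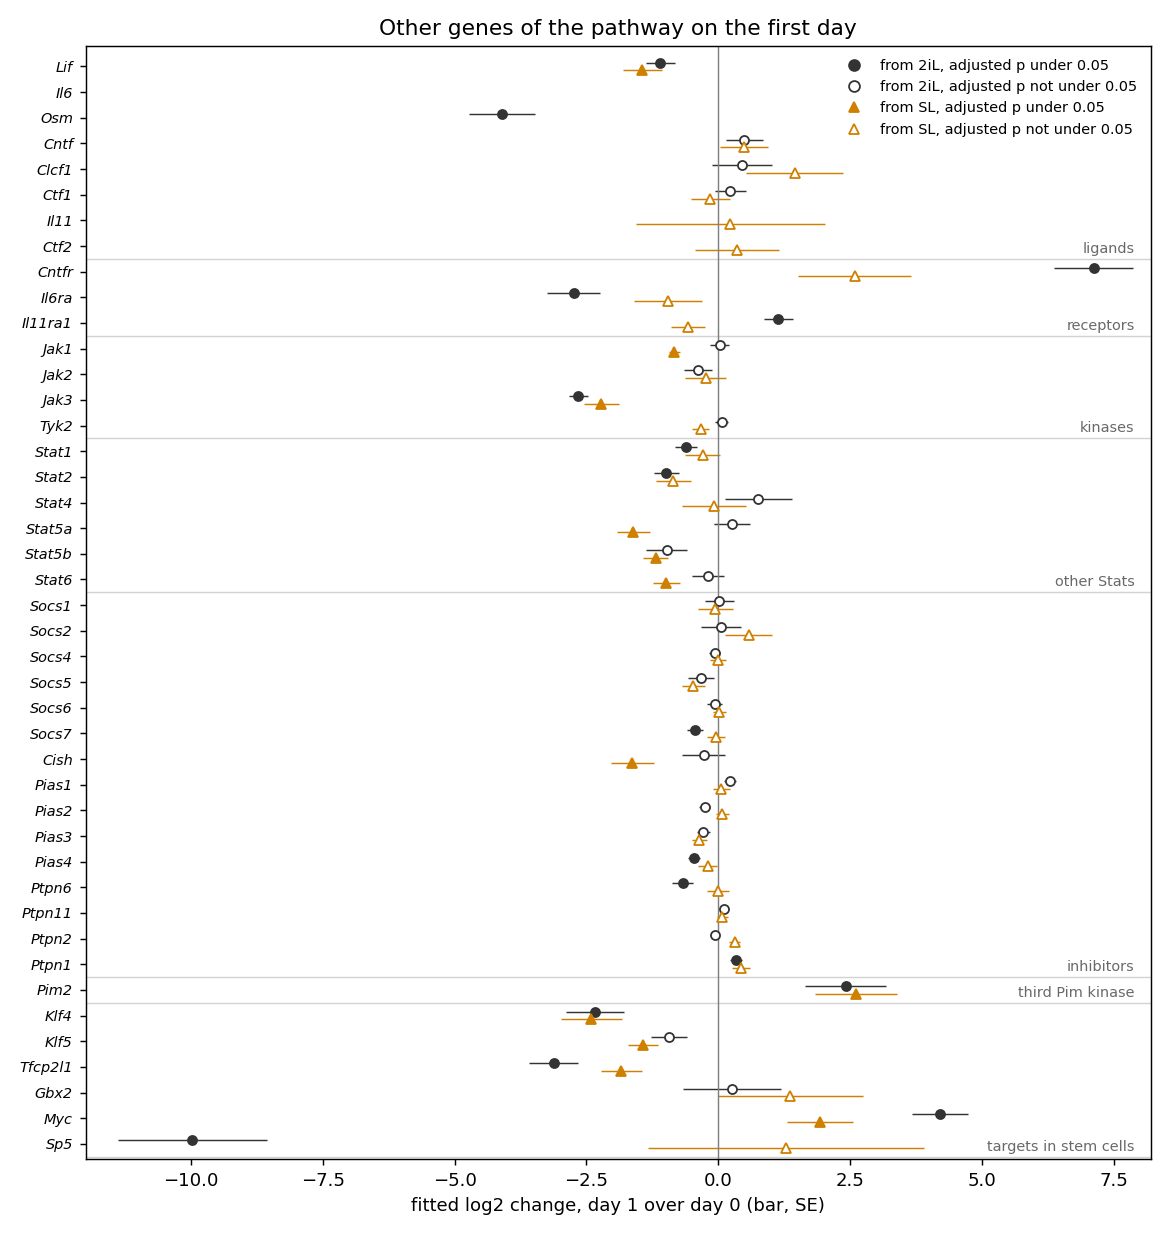
Fitted log2 change from day 0 to day 1, with its SE, for other genes of the pathway grouped by role. Circles are the change after 2iL and triangles that after SL, filled where the adjusted p was under 0.05, and genes with no symbol for a medium were too low to be tested there. Most inhibitors sit near 0, whereas Jak3 and Klf4 lie left of 0 and Pim2 and Myc right of 0 after both media.

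Beside Junb, 17 immediate early genes (Myc among them) were followed on day 1. From 2iL 2 were higher, Egr1 (4.97 ± 0.90) and Myc, and 2 lower, Btg2 (-1.35 ± 0.22) and Atf3 (-1.88 ± 0.63). From SL 5 were lower, Fos (-4.25 ± 0.50), Fosb (-4.25 ± 0.54), Btg2 (-1.67 ± 0.18), Jun (-1.42 ± 0.23) and Nr4a1 (-1.25 ± 0.38), and Myc was higher. All 5 of these falls were measured against the single SL day 0 library.

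Over all 45 libraries the level of Socs3, as log2(CPM + 0.1), followed that of Stat3 (Pearson r = 0.79) and Il6st (r = 0.75) more closely than that of Bcl3 (r = 0.63), Pim3 (r = 0.51), Pim1 (r = 0.45), Lifr (r = 0.34) or Junb (r = 0.28). Osmr, close to the detection limit, gave r = 0.54 with Socs3. Stat3 and Bcl3 gave r = 0.80. These values describe libraries that share courses and starting cultures. Of the 13768 genes with a mean of at least 1 CPM, the 5 most like Socs3 were Mknk1 (r = 0.88), Cmtm7 (0.87), Esyt1 (0.87), Tmem184b (0.86) and Cnn3 (0.85). By rank correlation only 1 of these 5 was among the 5 most like it. In likeness to Socs3 by Pearson r, Stat3 ranked 37, Il6st 75 and Bcl3 435 among the 13768 genes.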

How the data were processed

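Total RNA was depleted of ribosomal RNA, made into directional libraries and sequenced by the authors, who trimmed the reads with TrimGalore, aligned them with TopHat2 to mouse GRCm38 (mm10) and counted them per Ensembl gene with featureCounts, strand-specifically. The deposited values were raw counts per gene for each of the 45 libraries, and tool versions were not given in the sources used here. CPM is the count over the library total.

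Counts were tested with edgeR 4.0.16 in R 4.3.3 (TMM factors, filterByExpr, quasi-likelihood test, course as a block) on all genes, with Benjamini-Hochberg adjustment over all genes tested and a threshold of 0.05. Early is days 1 to 2 and late days 5 and 7. Comparisons of courses take the 2 media together, with the days of a period as replicates, which are not independent. DESeq2 1.42.0, RLE factors, no filter, no block, the spread of all 45 libraries, and leaving out each course or medium were the alternatives. The difference between media in the late EB comparison was added after values had been seen. The scripts were tested on simulated data.

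From day 1 on, libraries of the same course and medium deviated together (mean correlation 0.445 over 120 pairs, lowest 0.0863), and 98.3% of pairs were over 0.1. With the 2iL day 0 library of the same course the mean correlation was lower, at 0.169 over 20 pairs. Over 43 pairs of libraries of a medium and day, differences were at least 13.9 times the counting noise, so none was a duplicate. Intervals cover the spread among libraries, and floors counting error only. The members and lists were chosen with earlier results of these data known. Genes were named by these rules: all 9 members, up to 3 rises and 3 falls past the threshold of the other pathway genes by day 1 from each medium, ligands and kinases as ranges, immediate early genes beside Junb, and the 5 genes most like Socs3. The values of 1 of the other pathway genes are not reported here, and it is counted in the totals only.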

Additional observations from a re-analysis of the deposited data

Results flagged for a closer look

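The change of Il6st from day 0 to day 1 differed between the media by -1.35 on the log2 scale (2iL minus SL), and that of Pim3 by 1.43, each by a test of the difference itself. The single SL day 0 library enters both. The other 3 differences between the media came from a test chosen after values had been seen. On days 5 and 7, the EB course against the monolayers differed between 2iL and SL by 0.98 for Stat3, by 1.06 for Pim3 and by 2.08 for Junb. The EpiSC course from 2iL has 1 library in these. No group held 4 or more libraries of a medium, course and day, so single libraries were not tested for standing apart.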

How the results depend on the processing

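RLE factors changed no call of the 9 genes. Over the 523 values recomputed for them, 450 kept direction and side of the threshold, 59 lost the threshold, 7 gained it and 7 turned sign. Without the course as a replicate block, the genes past the threshold fell to 3053 from 4663 (2iL, day 1), to 1082 from 2990 (SL, day 1), to 4607 from 7018 (SL, days 5 and 7 against day 0), to 4755 from 7768 (origin over days 1 to 3) and to 493 from 1391 (difference of the day 1 change between media). Of the 9 genes 0 of 3 and 0 of 2 then passed in the last 2 of these, and the calls of single genes lost without the block are given beside them. With the spread of all 45 libraries 2 of 6 passed between the media at day 0. DESeq2 called 759 genes between the EpiSC and Neural courses on days 1 to 2 where edgeR called 350. The cause of these shifts was not tested.

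Leaving out 1 course gave 1884 to 4421 genes (2iL, day 1), 924 to 2791 (SL, day 1), 4812 to 7336 (origin) and 260 to 1459 (difference of the day 1 change), in each case fewest without the EpiSC course. Of the 9 genes it left 3 to 7 past the threshold (2iL, days 5 and 7 against day 1), 3 to 5 (SL, day 1), 1 to 2 (origin) and 0 to 1 (difference of the day 1 change). Leaving out 1 medium gave 3700 to 4040 genes of 5605 (EB, days 1 to 2), 3319 to 3920 of 5631 (EB, days 5 and 7), 9 to 371 (EpiSC against Neural, days 1 to 2) and 2736 to 4353 of 5925 (days 5 and 7), with 2 to 4 of the 9 genes for EB and 2 to 5 for EpiSC against Neural on days 5 and 7. These fits hold fewer libraries.

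The sign turned only for changes that had not passed. Without 1 course, Pim3 on day 1 from 2iL ran from -0.44 to 0.12, Lifr on day 1 from SL from -0.13 to 0.058, Il6st on day 1 from SL from -0.041 to 0.094, and Junb on days 5 and 7 against day 0 from -0.24 to 0.87 (2iL) and from -0.36 to 0.87 (SL). Without 1 medium, Junb in EB on days 5 and 7 ran from -0.32 to 1.795 and Socs3 between the EpiSC and Neural courses on days 1 to 2 from -0.047 to 0.096. Depth limited Osmr, with at most 15 counts in any day 0 library.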
